A study of Mus musculus and Homo sapiens with 6 samples.

Results

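The regions described here were stretches of open chromatin at the ends of long non-coding RNA (lncRNA) genes that lay away from protein-coding genes, in NMuMG cells, an epithelial line from mouse mammary gland. Peaks from 4 ATAC-seq libraries were merged into 55702 union regions. A union region was taken when its centre lay within 1 kb of an annotated end of a lncRNA gene and more than 5 kb from every end of a protein-coding gene, and 1663 regions met this rule. Of these, 786 (47.3%) had a peak in all 4 libraries, where 46.3% of all union regions had one. Chromosome 15 from 61 to 64 Mb was left out, and 10 regions at lncRNA gene ends lay there. The libraries were made from 25000, 50000, 75000 and 100000 cells, 1 library each, all labelled as below passage 10 and at time 0 h, to tune the ATAC-seq protocol. With 1 library per cell number no test between cell numbers could be made. Another 2 samples, of the human line MDA-MB-231_GATA3, were not analysed here.

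Long non-coding RNA genes are transcribed, often spliced, and make no protein. Some act in the nucleus as scaffolds or silence neighbouring genes on the same chromosome, others are hosts from whose introns small RNAs are cut, and for most no role is known. A start that is in use, like an enhancer, is usually depleted of nucleosomes, and ATAC-seq marks such DNA because the Tn5 transposase inserts adapters there. An open region at a gene end does not by itself show that the gene is transcribed.

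The 4 lists held 38878, 43832, 41509 and 45530 peaks at 25000, 50000, 75000 and 100000 cells. Each peak had a whole-number score set by the authors' caller, never below 8, with list medians of 15, 16, 15 and 16. The sequencing depth behind the lists is unknown, so a region without a peak may hold signal under the lowest score. Score percentiles below are ranks within a list, and a region's score in a library is that of its highest peak. In a population of cells, open DNA in fewer cells and less open DNA in each cell cannot be told apart. The label was checked at gene ends. Of 8 epithelial markers, 5 (Cdh1, Krt8, Krt18, Jup and Elf3) had a region in all 4 libraries, Cldn4 had one in 2 libraries, and Epcam and Cldn3 had none. The blood markers Ptprc and Cd3e and the endothelial markers Pecam1 and Cdh5 had none. Of 2 fibroblast markers, Col1a1 had a region in all 4 libraries and Pdgfra had none.

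The sequences below are the 300 bases around the annotated start of 8 lncRNA genes, 250 before it and 50 from it on, from RefSeq on mm10 (GRCm38.p6). A region with a peak in all 4 libraries overlapped each of these windows. They are shown because they span the kinds of start described below: 2 CpG-poor starts with an AP-1 match (4930471E19Rik and Morrbid), 2 CpG-rich starts with an AP-1 match (D130051D11Rik and Mirc35hg), and the starts of a microRNA host, 2 snoRNA hosts and an imprinted lncRNA. Capitals mark matches, on either strand, to 12 motifs. Their letters were TGANTCA for AP-1, TGACGTCA for CRE, CCAAT for the CCAAT box, GGGCGG for the GC box, CCGGAA for ETS, GGAATG for TEAD, TGTGGT for RUNX, GCGCN followed by TGCGC for NRF1, CACGTG for the E-box, TATAAA for the TATA box, AGATAA for GATA and AGGGGGC for the CTCF core.
4930471E19Rik (chr10:120636058-120636357, minus strand): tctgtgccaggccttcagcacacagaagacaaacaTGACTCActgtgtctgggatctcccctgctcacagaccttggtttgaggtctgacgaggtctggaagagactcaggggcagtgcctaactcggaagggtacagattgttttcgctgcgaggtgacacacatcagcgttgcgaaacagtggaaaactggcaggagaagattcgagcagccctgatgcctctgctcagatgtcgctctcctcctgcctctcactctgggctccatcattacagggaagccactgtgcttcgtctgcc
Morrbid (chr2:128429302-128429601, minus strand): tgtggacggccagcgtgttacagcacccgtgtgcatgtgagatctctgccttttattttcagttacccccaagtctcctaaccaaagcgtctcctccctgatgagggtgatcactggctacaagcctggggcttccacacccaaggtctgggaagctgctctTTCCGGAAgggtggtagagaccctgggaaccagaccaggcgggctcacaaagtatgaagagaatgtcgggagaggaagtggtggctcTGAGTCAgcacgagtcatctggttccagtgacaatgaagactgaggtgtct
D130051D11Rik (chr15:85634346-85634645, plus strand): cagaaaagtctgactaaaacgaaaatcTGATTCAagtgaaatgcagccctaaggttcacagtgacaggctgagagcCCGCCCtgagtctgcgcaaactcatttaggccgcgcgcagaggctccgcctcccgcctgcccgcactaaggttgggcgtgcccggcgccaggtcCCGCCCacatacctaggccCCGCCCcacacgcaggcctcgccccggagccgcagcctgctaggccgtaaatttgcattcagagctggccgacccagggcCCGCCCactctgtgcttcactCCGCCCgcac
Mirc35hg (chr6:30174076-30174375, minus strand): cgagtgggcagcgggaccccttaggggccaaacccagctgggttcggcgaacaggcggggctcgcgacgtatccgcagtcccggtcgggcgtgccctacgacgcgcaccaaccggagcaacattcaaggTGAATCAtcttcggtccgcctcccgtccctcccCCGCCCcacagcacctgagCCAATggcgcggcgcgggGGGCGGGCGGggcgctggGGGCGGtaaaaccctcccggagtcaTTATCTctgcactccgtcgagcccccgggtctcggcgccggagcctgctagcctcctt
Mir22hg (chr11:75461289-75461588, plus strand): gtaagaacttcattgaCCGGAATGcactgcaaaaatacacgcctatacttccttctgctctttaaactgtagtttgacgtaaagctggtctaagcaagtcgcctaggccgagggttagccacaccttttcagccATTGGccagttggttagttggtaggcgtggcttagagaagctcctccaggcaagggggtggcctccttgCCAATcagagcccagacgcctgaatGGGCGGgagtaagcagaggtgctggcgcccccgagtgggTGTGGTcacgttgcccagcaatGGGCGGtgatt
Snhg5 (chr9:88522848-88523147, minus strand): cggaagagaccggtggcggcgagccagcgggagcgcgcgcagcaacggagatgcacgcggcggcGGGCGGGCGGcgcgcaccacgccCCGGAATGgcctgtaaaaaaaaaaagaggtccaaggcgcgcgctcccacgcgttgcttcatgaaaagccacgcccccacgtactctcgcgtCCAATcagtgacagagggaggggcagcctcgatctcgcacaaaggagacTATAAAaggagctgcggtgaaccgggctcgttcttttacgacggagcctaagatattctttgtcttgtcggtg
Snhg15 (chr11:6528711-6529010, minus strand): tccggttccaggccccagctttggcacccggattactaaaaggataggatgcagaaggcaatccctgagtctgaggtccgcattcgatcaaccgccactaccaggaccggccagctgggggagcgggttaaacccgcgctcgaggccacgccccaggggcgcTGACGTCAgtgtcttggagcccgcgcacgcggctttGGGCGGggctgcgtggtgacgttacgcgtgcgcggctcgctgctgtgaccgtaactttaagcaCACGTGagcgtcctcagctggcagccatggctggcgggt
Kcnq1ot1 (chr7:143296498-143296797, minus strand): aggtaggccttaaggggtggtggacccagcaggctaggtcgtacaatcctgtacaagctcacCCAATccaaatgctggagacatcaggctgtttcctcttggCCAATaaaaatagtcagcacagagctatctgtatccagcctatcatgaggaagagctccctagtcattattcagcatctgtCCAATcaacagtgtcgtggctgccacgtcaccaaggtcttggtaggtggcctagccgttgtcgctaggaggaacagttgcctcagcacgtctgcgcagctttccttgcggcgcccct
Of all 32850 promoter windows of the reference, 7.81% held an AP-1 match, 1.79% a CRE, 37.4% a CCAAT box, 35.7% a GC box, 14.9% an ETS, 14.7% a TEAD, 16.8% a RUNX and 4.60% an NRF1 match. The E-box was in 7.15%, the TATA box in 13.6%, the GATA letters in 11.2% and the CTCF core in 10.6%. The ETS and TEAD letters overlap where they share bases, as in the Mir22hg and Snhg5 windows, and neighbouring GC boxes overlap in the Mirc35hg and Snhg5 windows. The ETS letters matched on both strands at a single place in Morrbid. A match only describes the letters.

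The mature microRNAs of the 2 hosts shown follow, with the seed (bases 2 to 8) in capitals. They are given because these hosts are best known for the small RNAs cut from them, and all lay within the host genes.
mmu-miR-22-3p (from Mir22hg): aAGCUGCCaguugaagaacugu
mmu-miR-182-5p (from Mirc35hg): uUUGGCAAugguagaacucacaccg
mmu-miR-96-5p (from Mirc35hg): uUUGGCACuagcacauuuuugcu
mmu-miR-183-5p (from Mirc35hg): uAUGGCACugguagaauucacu
The 5p strands of miR-182 and miR-96 share all seed bases but the last, and those of miR-96 and miR-183 share all but the first.

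Among members with a peak in every library, the 10 with the highest mean score percentile were mostly at starts of lncRNA genes known only by identifiers. The start of 4930554I06Rik (chr19:21104201-21105100), 67.5 kb from the nearest end of the ion-channel gene Tmc1, scored 121, 123, 142 and 129 from 25000 to 100000 cells. Its other end had a region of its own, with scores of 56, 64, 84 and 56. The start scored higher than the other end in all 4 libraries. The start of 4930471E19Rik (chr10:120635651-120636650) lay 145 kb from Msrb3, a methionine sulfoxide reductase gene, and scored 103, 105, 125 and 122. The start of D130051D11Rik (chr15:85634151-85635250), 52.9 kb from the Wnt ligand gene Wnt7b, scored 90, 136, 104 and 116. The printed window of D130051D11Rik is rich in CpG and that of 4930471E19Rik is not.

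The start of 1700054K19Rik, 63.0 kb from Lmcd1, scored 96, 135, 118 and 140. The start of 1700096K18Rik scored 98, 140, 103 and 105. The start of Gm32513, 99.2 kb from Cebpb, a transcription factor gene, scored 97, 112, 84 and 115. These members all ranked in the highest 2% of each list, whereas the order of the libraries differed from gene to gene. The start of Gm46099, 22.7 kb from Ngef, scored 89, 88, 105 and 112. The start of Gm46600, 7.33 kb from Axin1, which encodes a scaffold of the beta-catenin destruction complex, scored 91, 98, 89 and 99. At the finish of Gm41853 (chr19:44283851-44284750), 9.38 kb from the fatty acid desaturase gene Scd2, the scores were 152, 162, 129 and 159.

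The member with the highest mean percentile was at the finish end of AY036118 (chr17:39847451-39848900), with scores of 326, 353, 135 and 167. The scores at 25000 and 50000 cells were thus both above those at 75000 and 100000 cells. This region also covered the end of Rn18s-rs5, a pseudogene of the 18S ribosomal RNA on chromosome 17 from 39846354 to 39848202. Ribosomal DNA has many near-identical copies, so the copy that its reads came from is uncertain.

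**Figure D1:**
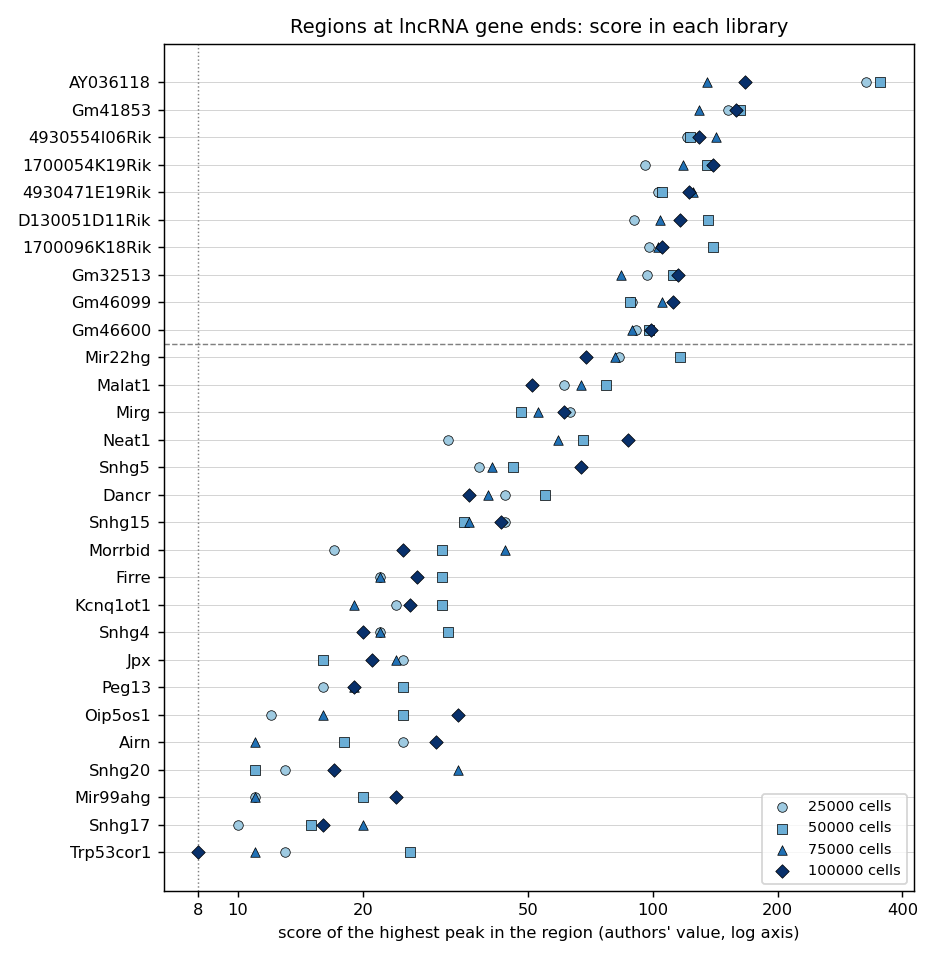
Score of the highest peak in each library (horizontal log axis, the authors' value) for the 10 members with the highest mean score percentile (above the dashed line) and for the members of the lncRNA gene lists found in all 4 libraries (below it, 1 region per gene). Each symbol is 1 library, named by its cell number, and the dotted line is the lowest score in the lists, 8. AY036118 spans 135 to 353, and the listed genes run from Mir22hg at 69 to 116 down to Trp53cor1 at 8 to 26.

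The 4 gene lists used here held 86 names of known lncRNA genes, of which 79 matched a lncRNA entry. A region lay within 1 kb of an end of 42 of these 79 (53.2%), where 23.1% of all 12731 lncRNA genes had one. Of the 79, 60 had an end more than 5 kb from protein-coding gene ends. Of these, 25 (41.7%) had a member, where 13.8% of all 11101 such lncRNA genes had one. A member in all 4 libraries was found for 19 of the 60, where 6.96% of the 11101 (773) had such a region. By list, the share with a member was 52.9% for the nuclear and X inactivation list and 85.7% for the snoRNA host list. It was 38.5% for the microRNA host list and 21.7% for the developmental and antisense list. Carmn stood in 2 lists and is counted under both.

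Of 17 nuclear, imprinted and X inactivation lncRNAs, all with an end away from coding genes, 9 had a member, 8 of them in all 4 libraries. Malat1, an abundant RNA of nuclear speckles, had a region centred 853 bp upstream of its annotated start, with scores of 61, 77, 67 and 51. Another at its finish end scored 38, 46, 58 and 47, and a small region near that end was found at 75000 cells alone with a score of 9. Both main regions were present in every library, and no order by cell number was seen in either. Neat1, the scaffold RNA of paraspeckles, had a region at its upper end (chr19:5844851-5846000) that scored 32, 68, 59 and 87. Its lower end had a region in 2 libraries only, scoring 12 at 25000 and 9 at 50000 cells. The strand of Neat1 is not in the promoter table. In both libraries that held the 2 regions, the upper end scored higher.

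Among imprinted genes, the start of Kcnq1ot1, the RNA from the paternal chromosome that silences neighbours of Kcnq1, scored 24, 31, 19 and 26. Its printed window holds 3 CCAAT boxes. The start of Airn, which silences Igf2r on the paternal chromosome, scored 25, 18, 11 and 30. A further region 885 bp from the Airn start scored 39, 21 and 38 at 50000, 75000 and 100000 cells and had no peak at 25000 cells. Peg13 scored 16, 25, 19 and 19. At the Dlk1 to Dio3 imprinted domain, Mirg had a region at its finish end with scores of 63, 48, 53 and 61. Rian had a single peak, of 17, at 100000 cells, and Meg3 had no region. H19 and Snhg14, of other imprinted domains, had none. Open regions were therefore found at some imprinted lncRNAs and not at others of the same domain.

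On the X chromosome, the start of Jpx, an activator of Xist, scored 25, 16, 24 and 21. The start of Firre, which makes a nuclear repeat-containing RNA, scored 22, 31, 22 and 27. Neither Xist, the RNA that coats the inactive X, nor Ftx had a region at an end in any library. Norad and Miat, which are not on this chromosome, had none. Tug1 had a region in all 4 libraries, scoring 20, 59, 51 and 50, at an end that is within 5 kb of a coding gene, so that it is no member.

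Small nucleolar RNAs guide chemical changes of ribosomal RNA and are cut from the introns of host genes. A region lay at an end of 18 of 20 lncRNA hosts (90%), where 23.1% of all lncRNA genes had one. For 12 of the 18 the end was close to a coding gene. Of the 7 with an end away from coding genes, 6 had a member, each in all 4 libraries, and Snhg11 had none. Snhg5 scored 38, 46, 41 and 67. Dancr, a host that in human skin keeps progenitor cells undifferentiated, scored 44, 55, 40 and 36. Snhg15 scored 44, 35, 36 and 43. The scores of these genes were above the median of 15 to 16 of each list in all 4 libraries. Snhg4 was also above it throughout, at 22, 32, 22 and 20. Snhg20 scored 13, 11, 34 and 17, and Snhg17 scored 10, 15, 20 and 16, so both had scores below it and scores above it. The printed Snhg5 window holds a TATA box, and that of Snhg15 holds a CRE, an E-box and a GC box.

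Of 13 lncRNAs in the list drawn up for microRNA hosts that had an end away from coding genes, 5 had a member. In all 4 libraries, 2 of the 13 had one. The list also held Mirt1 and Lncpint, and whether each entry is a host was not checked. Mir22hg, the host of miR-22, had the highest mean score percentile of the members at listed genes, with scores of 83, 116, 81 and 69 over its start (chr11:75460951-75461850). Weaker regions lay to both sides of that start. The one downstream scored 14, 13, 11 and 16, and the one upstream scored 13 at 50000 and 30 at 100000 cells. Mir99ahg, the host of miR-99a, scored 11, 20, 11 and 24. Dleu2 scored 12, 18 and 16 and had no peak at 75000 cells, and Carmn scored 13, 11 and 16 and lacked one there as well. Lncpint, a p53-induced RNA, had a peak of 10 at 50000 cells alone. No region was found at Mir17hg, Mir100hg, Mir155hg or Mir205hg. Mirc35hg, host of miR-183, miR-96 and miR-182, stood in no list and was chosen after its values were seen. Its start (chr6:30173651-30174550) scored 35, 53, 42 and 51 in a window with 4 GC boxes.

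Of 23 developmental and antisense lncRNAs with an end away from coding genes, 5 had a member and 3 had one in all 4 libraries. The start of Morrbid, which in blood cells lowers expression of its neighbour Bcl2l11, scored 17, 31, 44 and 25. The start of Oip5os1, known as Cyrano and as a partner of miR-7, scored 12, 25, 16 and 34. Trp53cor1, known as lincRNA-p21, had a region 11.9 kb from Cdkn1a that scored 13, 26, 11 and 8. All were found in each library, and the highest score was at 75000 cells for Morrbid, 100000 for Oip5os1 and 50000 for Trp53cor1. Halr1, beside the Hoxa genes, had a peak of 8 at 50000 cells alone. Hotair, Hottip, Sox2ot, Fendrr and Tincr had no region.

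Over all members, 786 were shared by all 4 libraries (47.3%, 44.8 to 49.7, an exact Clopper-Pearson 95% interval). The share was 74.3% of the 11341 regions within 1 kb of a protein-coding gene end, 37.9% of the 28647 regions more than 5 kb from any gene end and 46.3% of all union regions. Members found in 3 and in 2 libraries numbered 234 and 212. A single library held 431 members (25.9%), against 10.6% of regions at protein-coding ends, 30.8% of those far from gene ends and 26.2% of all union regions. The members thus sat between the other sets and close to the average of all regions. Intervals cover counting error only.

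**Figure D2:**
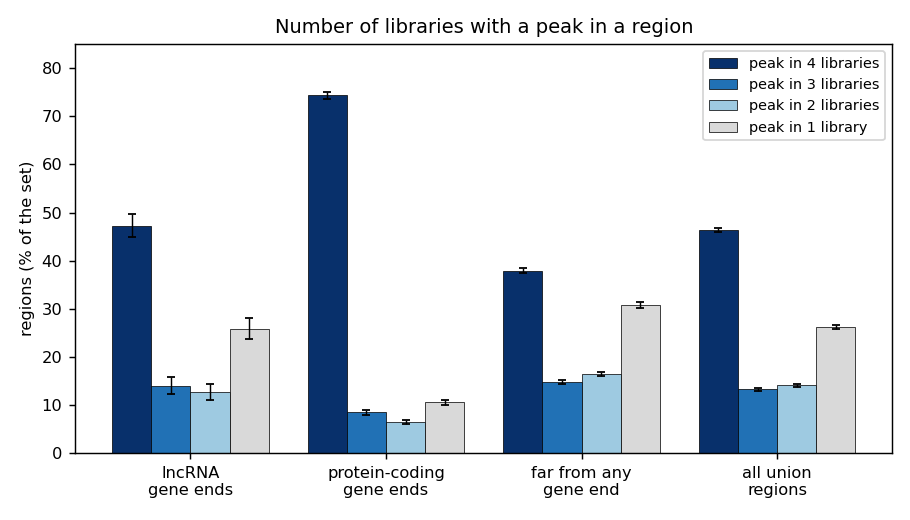
Share of regions (vertical axis, % of the set) with a peak in 4, 3, 2 or 1 of the libraries, for members, regions at protein-coding gene ends, regions more than 5 kb from any gene end and all union regions. Bars start at 0 and error lines are exact 95% intervals. The share in all 4 libraries is 47.3% for members, 74.3% at protein-coding gene ends and 37.9% far from gene ends.

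A peak was present in 1077 members (64.8%) at 25000 cells, 1225 (73.7%) at 50000, 1123 (67.5%) at 75000 and 1276 (76.7%) at 100000 cells. All union regions had 64.1%, 72.5%, 68.2% and 74.9%. The members followed the length of the lists, within 2 percentage points of all regions at each cell number. Members missing from 1 library alone numbered 100, 38, 72 and 24 at 25000, 50000, 75000 and 100000 cells. These were 6.01%, 2.29%, 4.33% and 1.44% of members, against 5.30%, 2.45%, 3.65% and 1.92% of all union regions. Members found in 1 library alone numbered 84, 125, 74 and 148. These were 5.05%, 7.52%, 4.45% and 8.90%, against 4.53%, 7.44%, 5.77% and 8.48% of all union regions. Both patterns were close to those of all regions.

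The median score of members was 17, 17, 18 and 18, against 23, 29, 27 and 30 at protein-coding gene ends and 14 in every library for regions far from gene ends. The median score percentile of members was 57.2, 53.4, 57.6 and 55.4. It was lower than at protein-coding ends in all 4 libraries, by 18.2 percentile points on average (difference -18.2 ± 3.62, SD, n = 4; two-sided exact sign-flip permutation p = 0.125). It was higher than far from gene ends in all 4, by 11.4 ± 1.38 points (exact permutation p = 0.125). With 4 libraries 0.125 is the smallest p that this test can give. Against all other regions the difference was 2.95 ± 2.42 points, positive in 3 of 4 libraries (exact permutation p = 0.25). The median peak was 550 bp wide in members in each library, and 650 to 700 bp at protein-coding gene ends.

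How often a member was shared rose with its highest score. That score is taken over the same 4 libraries, and no list goes below 8, so part of the rise is built in. Of the 310 members whose highest score was 8 or 9, 0.323% were found in all 4 libraries, of those at 10 to 14 8.47%, at 15 to 24 54.8%, at 25 to 49 97.3%, and of the 172 at 50 and above 100%. At protein-coding gene ends the shares were 0.661%, 13.2%, 66.9%, 97.8% and 100%, and far from gene ends 0.0769%, 8.85%, 55.4%, 95.8% and 99.9%. At scores of 10 to 14 and 15 to 24 the members were near the regions far from gene ends, and their interval of 49.7 to 59.7% at 15 to 24 did not reach the share at protein-coding ends. At 25 to 49 their interval of 95.1 to 98.7% covered the shares of both other sets. Only 10.3% of members scored 50 or above, against 26.5% of regions at protein-coding ends and 5.29% far from gene ends.

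**Figure D3:**
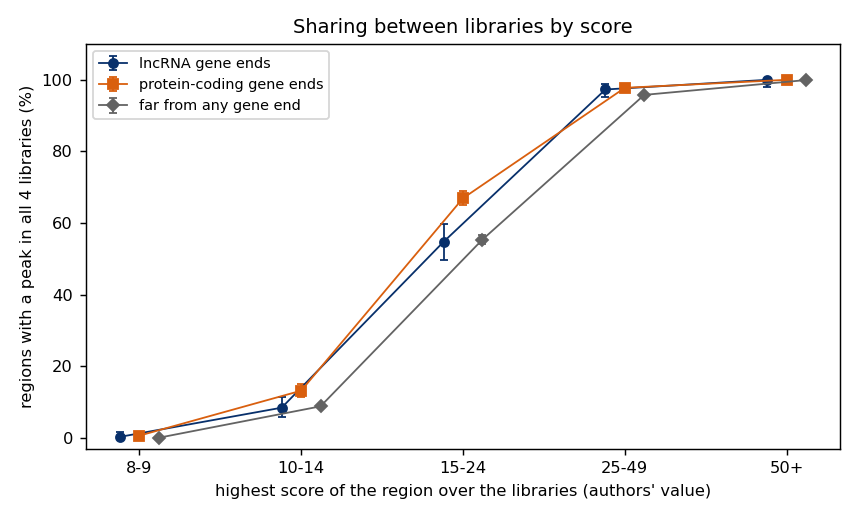
Share of regions with a peak in all 4 libraries (vertical axis, %) by the highest score of the region over the libraries (horizontal axis, 5 classes), for members, regions at protein-coding gene ends and regions far from any gene end. Error lines are exact 95% intervals, and points are shifted sideways for legibility. The share of members is 0.323% at scores of 8 and 9 and 100% at 50 and above.

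In every library, members at starts of lncRNA genes had a higher median score than members at finishes. A strand was at hand for 9533 of the 12731 lncRNA genes. By it, 896 members (53.9%) lay at a start, 387 at a finish only, and 380 at ends without a strand. Of members at starts, 54.1% (50.8 to 57.4) were found in all 4 libraries, against 35.4% (30.6 to 40.4) at finishes. Found in a single library were 21.5% at starts and 34.4% at finishes. The median score was 17, 19, 19 and 20 at starts and 15, 14, 16 and 15 at finishes. The difference in median percentile was 10.9 ± 3.92 points (SD, n = 4), higher at starts in 4 of 4 libraries (exact sign-flip permutation p = 0.125, the smallest possible).

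Counted from the ends, 863 of 7220 lncRNA starts away from coding genes had a region (11.95%), against 417 of 7709 finishes (5.41%). For regions in all 4 libraries the shares were 6.73% of starts and 2.02% of finishes. By library, 8.61%, 9.47%, 8.78% and 9.67% of starts had a region, against 3.15%, 3.66%, 3.22% and 3.89% of finishes, a ratio of 2.48 to 2.73. The difference was 5.65 ± 0.169 percentage points (SD, n = 4; exact sign-flip permutation p = 0.125). For 5978 genes longer than 2 kb with both ends away from coding genes, regions in all 4 libraries were counted. Of these genes, 345 (5.77%) had such a region at the start only, 88 at the finish only, 16 at both and 5529 at neither. Most of them thus had no region shared by all 4 libraries at their ends. In any library, 1537 of 11101 lncRNA genes (13.8%) had a region at an end away from coding genes. A member lay within 1 kb of each end in 133 genes, which in a short gene can be a single region. A630001O12Rik, with 3 members, scored 63, 69, 72 and 75 at the first, 54, 40, 50 and 65 at the next, both within 1 kb of its start, and 38, 52, 37 and 50 at its finish. Gm39575 scored 72, 58, 45 and 72, Gm11205 scored 30, 63, 40 and 55, and Gm35808 scored 48, 42, 45 and 41, each at its start. No other member was listed under Gm39575, Gm11205 or Gm35808. With 4930554I06Rik these were the 5 such genes of highest mean percentile.

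Regions were centred on the starts but not on the finishes. Of 889 placements at starts, 51.6% lay within 250 bp of the start, with a median offset of 0.5 bp and 49.7% upstream. Of 427 at finishes, 17.8% lay within 250 bp, with a median offset of -146.5 bp. The finish regions were spread over the whole window. Examples at finishes were AY036118, Gm41853 and Mirg. Of the 387 members at a finish only, 7 had a listed start of a protein-coding or lncRNA gene within 1 kb. This count is low by construction. Members within 1 kb of a known lncRNA start were placed at starts, and the rule left out regions within 5 kb of coding gene ends.

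**Figure D4:**
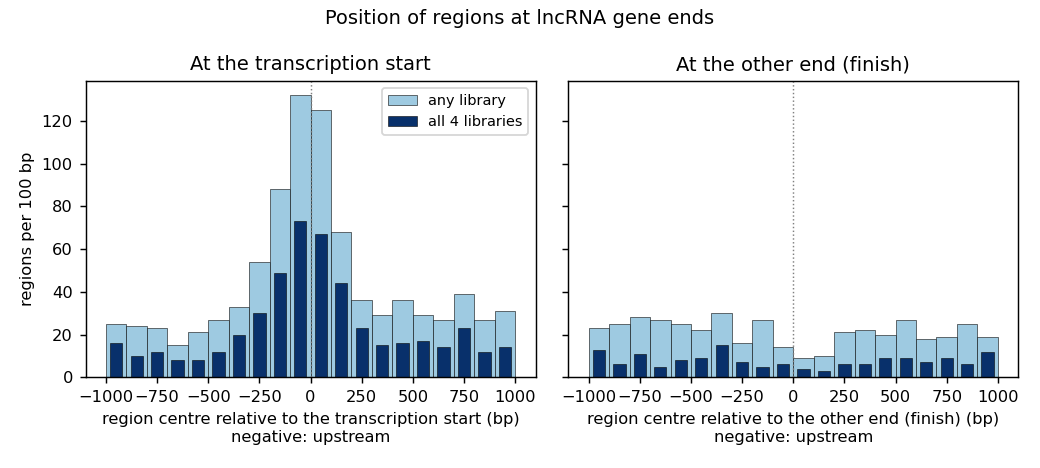
Number of regions per 100 bp (vertical axis) by the distance of the region's centre from the lncRNA transcription start (left) and from the other end (right), in bp along the strand of the gene, negative upstream. Light bars are regions in any library and dark bars those in all 4. At starts 51.6% lie within 250 bp and at finishes 17.8%.

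The 300 bp windows at lncRNA starts with a region were richer in GC and CpG than those at starts without one. Composition and motif letters were read in these windows and not in the regions themselves. A region at a start need not cover the window. Of the placements at starts of regions in all 4 libraries, 54.0% lay within 250 bp of the start. In the 300 bp windows of starts away from coding genes, the median GC content was 52% for the 472 starts with a region in all 4 libraries, 49% for the 364 with a region in 1 to 3 libraries and 46.7% for the 6158 with none. The median ratio of observed to expected CpG was 0.325, 0.254 and 0.208. CpG-rich windows, with a ratio of at least 0.6, made up 23.9%, 10.2% and 4.48%. Protein-coding starts with a region in all 4 libraries had 81.2% CpG-rich windows, and all promoter windows 35.8%. Most lncRNA starts with a region in all 4 libraries were thus CpG-poor, as 4930471E19Rik and Morrbid were.

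Of CpG-rich lncRNA starts, 35.2% (150 of 426) had a region and 26.5% had one in all 4 libraries. Of CpG-poor starts, 10.4% (686 of 6568) had a region and 5.47% had one in all 4. Among members at starts, the 152 at CpG-rich windows had median scores of 23.5, 27, 25 and 27, and 71.7% were in all 4 libraries. The 716 at CpG-poor windows had median scores of 16, 18, 18 and 19, and 50.6% were in all 4. CpG-rich starts with high scores included D130051D11Rik, Mirc35hg and Snhg5, whose windows are printed above.

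The letters of AP-1, the Fos and Jun family of transcription factors, were in 21.4% (77 of 359, 17.3 to 26.1) of CpG-poor lncRNA starts with a region in all 4 libraries. They were in 16.2% of those with a region in 1 to 3 libraries and in 10.1% (595 of 5882, 9.36 to 10.9) of those with none. By the highest score of the region, from 8 or 9 to 50 and above, the share was 19.7%, 15.6%, 14.9%, 22.7% and 25%. At CpG-poor protein-coding starts the share was 10.1% (174 of 1731) with a region in all 4 libraries, 15.2% (111 of 730, 12.7 to 18.02) with a region in 1 to 3 libraries and 9.82% (851 of 8665) with none. By the highest score of the region, in the same classes, it was 16.7%, 13.6%, 11.9%, 10.2% and 9.68%. At coding starts the share with a region in 1 to 3 libraries was thus above that without a region, and the interval of the share with a region in all 4 (8.68 to 11.6) covered it. The GC box was in 14.8% of CpG-poor lncRNA starts and in 46.7% of CpG-poor protein-coding starts, both with a region in all 4 libraries. With no region it was in 6.66% (392 of 5882) and 14.8% (1284 of 8665), so it was more frequent with a region in both.

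At CpG-rich lncRNA starts the GC box, bound by Sp family factors, was in 75.2% (85 of 113, 66.2 to 82.9) of those with a region in all 4 libraries and in 27.2% (75 of 276, 22.0 to 32.8) of those with none. AP-1 letters were in 6.19% and 5.07% of them, with overlapping intervals. At protein-coding CpG-rich starts the GC box was in 75.9% with a region in all 4 libraries and 68.3% with none. Over all lncRNA starts away from coding genes, ETS letters were in 12.9% with a region in all 4 libraries and 5.70% with none, CRE in 2.75% and 0.601%, NRF1 in 2.75% and 0.341%, and the CTCF core in 9.53% and 4.16%. GATA letters were in 11.02% and 16.0%, the TATA box in 13.6% and 17.9%, the CCAAT box in 30.5% and 36.8%, and RUNX in 21.4% and 21.6%. Among CpG-rich starts, ETS letters were in 28.3% with a region in all 4 libraries and 19.9% with none, and CRE in 4.42% and 4.71%. The CTCF core was in 16.8% and 6.16% of them. Among CpG-poor starts, ETS was in 8.08% and 5.03%, CRE in 2.23% and 0.408%, and the CTCF core in 7.24% and 4.06%. Intervals overlapped in both classes for ETS, NRF1, the E-box, GATA, the TATA box, the CCAAT box and RUNX, and in CpG-rich starts for CRE and TEAD. They did not for CRE and TEAD in CpG-poor starts or for the CTCF core. TEAD letters were in 22.8% (18.6 to 27.5) of CpG-poor starts with a region in all 4 libraries and 17.2% (16.2 to 18.2) with none. CpG and GC content moved with the pooled shares, and beyond this split their part was not tested.

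**Figure D5:**
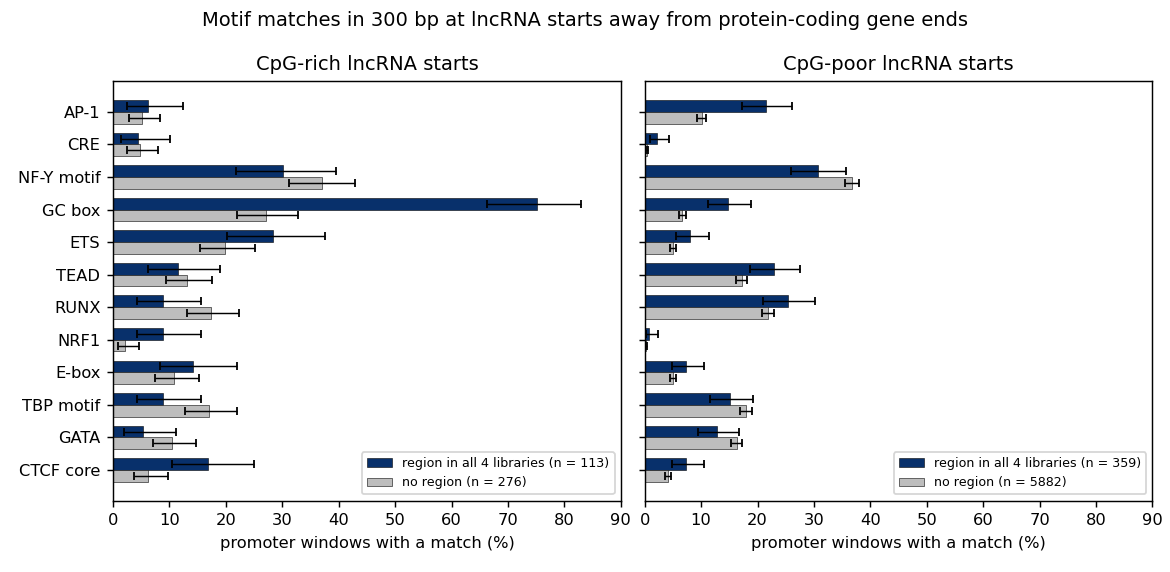
Share of 300 bp windows at lncRNA starts with a match to each motif (horizontal axis, %), for CpG-rich starts (left) and CpG-poor starts (right). Dark bars are starts with a region in all 4 libraries, grey bars starts with no region, and error lines exact 95% intervals. The GC box stands at 75.2% against 27.2% in CpG-rich starts, and AP-1 at 21.4% against 10.1% in CpG-poor starts. NF-Y motif stands for the CCAAT box and TBP motif for the TATA box.

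Members also varied between libraries. The members in all 4 libraries with the widest range of percentile were all lowest at 25000 cells, where each scored 8. Gm33636, 12.9 kb from Hdac7, scored 8, 27, 34 and 26. The start of 4931413K12Rik scored 8, 17, 33 and 23. Gm13985 scored 8, 31, 20 and 31. The members in all 4 libraries with the lowest ranks stayed between 8 and 11, namely Gm31194 at 9, 8, 9 and 11, Gm30232 at 8, 9, 11 and 8, and Gm46952 at 9, 8, 8 and 8. The highest member of a single library was Gm30916 with 17 at 25000 cells, Gm34880 with 16 at 50000, Gm30782 with 21 at 75000 and Gm33817 with 24 at 100000 cells. Members found once thus stayed at or below 24. Across members with a peak in both libraries of a pair, Spearman's rho of the scores was 0.773 to 0.836 over the 6 pairs, with 863 to 1011 members, and at protein-coding ends 0.838 to 0.883. The pairs have libraries in common, and only members with a peak, and so a score of 8 or more, in both libraries enter.

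Few members carry a name that tells of a role. Gm identifiers belonged to 1301 members, Rik identifiers to 260, LOC identifiers to 26 and other symbols to 76. Found in all 4 libraries were 45.5%, 53.1%, 42.3% and 59.2% of them. The members were nearest to 1490 different lncRNA genes, and their median distance to a protein-coding gene end was 27.6 kb (quartiles 12.7 and 60.2). Inside a protein-coding gene lay 487 members (29.3%), against 53.4% of all union regions. The rule leaves out regions within 5 kb of a coding gene end, inside the gene as well, so these shares are of unlike sets. Members inside and outside coding genes were found in all 4 libraries at 46.6% and 47.5%. Within 1 kb of an internal start of a protein-coding gene lay 62 members, of which 74.2% were in all 4 libraries, against 46.2% of the rest. At the limits of the rule, just inside 1 kb, Gm43699 scored 25, 31, 20 and 21 and Gm40670 scored 11, 22, 28 and 21. Just outside it, and so no members, Gm52551 scored 16, 17, 16 and 24, and Gm46738 had peaks of 14 at 50000 and 10 at 100000 cells. Among members just over 5 kb from a coding gene end, Gm41546 scored 14, 11 and 18 with none at 75000 cells, and Gm35474 scored 11 and 14 at 25000 and 50000 cells. Just under 5 kb from a coding gene end, and so no members, Gm39813 scored 11, 14 and 9 with none at 100000 cells, and Gm35610 scored 29, 23, 34 and 26.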

How the data were processed

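The authors deposited 1 peak list per library, giving every peak a position and an integer score of their own; what the score is computed from is not given in the sources used here. Tools, per the submitters' processing notes, were bedtools 2.17.0, Picard 1.107, SAMtools, Bowtie 0.12.8 and cutadapt, with the builds mm10 and hg19. Peaks overlapping by at least 1 bp were merged, and a library counted as having a region when 1 of its peaks lay in it. Gene ends came from the RefSeq table of GRCm38.p6, which gives no strand; strand was taken from the RefSeq promoter windows. Intervals are exact Clopper-Pearson 95% intervals, and differences over the 4 libraries were tested by exact sign-flip permutation, two-sided. Python 3.11.15, numpy 2.4.6, pandas 2.3.3, scipy 1.17.1 and matplotlib 3.10.9 were used, and the region and distance steps were tested on simulated data. The members and lists were chosen with earlier results of these data known. Named are the 10 highest and 3 lowest members by mean percentile and the 3 of widest range, all among those in all 4 libraries, the highest member of each single library, members at listed genes, up to 5 genes with members at both ends, and members nearest the limits. Alternatives were the overlap, score, window, distance, annotation, chromosome and library choices given in the closing section.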

Additional observations from a re-analysis of the deposited data

How the results depend on the processing

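Alternatives were run for the number of members, the shares in all 4 and in a single library, the percentile and width differences from all other regions, and the share of lncRNA genes with a region. They were not run for starts against finishes, for members against protein-coding or far regions, or for CpG and motif shares. The share of members in all 4 libraries (47.3%) was 44.0% when only peaks covering at least 50% of their union region counted. It was 51.5% with only peaks that reached the median score of their list and 49.9% with a 500 bp window. Without genes named by Gm, LOC or Rik identifiers it was 59.0%. By highest score it was 0.323%, 8.47%, 54.8%, 97.3% and 100% in the 5 classes. It was 53.3% to 56.0% when 1 library was left out and the other 3 were required. The share in a single library (25.9%) was 21.8% with peaks at or above the median score, 16.7% without such identifiers, and 26.7% to 28.8% with 1 library left out. The number of members (1663) was 918 at or above the median score, 1047 with a 500 bp and 2719 with a 2 kb window, 78 without such identifiers, and 1525 to 1592 with 1 library left out. The share of lncRNA genes with a region (13.8%) was 16.3% with any overlap of the 1 kb to either side of an end, 7.95% at or above the median score and 11.95% for starts alone. The cause of these shifts was not tested; all rest on fewer or more peaks, ends or genes by construction. The difference in median percentile between members and all other regions stayed positive, at 0.0163 to 15.3 points. The 0.0163 came with the 2 kb window, and with peaks at or above the median score it was 0.105. The difference in median width was 0 bp and was 0 to 62.5 bp under the alternatives. Leaving out members near an internal coding start (46.2% in all 4 libraries) and merging overlapping peaks of a list (47.3%) were chosen after seeing the data. No paired analysis was possible because each cell number had 1 library, with no replicates to pair between cell numbers; the sign-flip tests compare sets of regions within each library. The lists hold only scores of 8 and above and no counts, so the depth behind them is unknown.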

Other observations

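Some members lay beside genes of epithelial cells; these and the other neighbourhoods below were chosen after their values were seen. Krt8 and Krt18, the keratin pair of simple epithelia, are neighbours on chromosome 15, and the start of the lncRNA gene Gm41404 lies between them. A region on one side of its start (chr15:102017651-102018500) scored 75, 98, 72 and 95 from 25000 to 100000 cells, 10.1 kb from Krt18. The region on the other side (chr15:102015901-102016650) scored 66, 34, 55 and 54, 11.9 kb from Krt8. The ends of the keratin genes themselves had regions with scores of 51, 61, 67 and 79 at Krt8 and 22, 23, 30 and 32 at Krt18. All of these places had a peak in all 4 libraries.

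Between Calm2 and Epcam lay 5 members, of which 4 were found in all 4 libraries. The nearest to Epcam, 22.7 kb from its end, was the start of Gm46609 with scores of 18, 45, 32 and 35. Gm46587 scored 14, 33, 35 and 49, Gm30984 scored 13, 20, 24 and 17, and Gm30794 scored 28, 37, 33 and 41. Epcam, an epithelial adhesion gene, had no region within 1 kb of either end.

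The densest 250 kb stretch held 7 members, 5 of them in all 4 libraries (chr2:167697701-167877850), between Cebpb and Ptpn1. Gm32513 and Gm32287 led it, the second with scores of 69, 76, 77 and 92. A530013C23Rik, 7.59 kb from Cebpb, scored 28, 20, 29 and 22. Beside Irf2bpl on chromosome 12, Gm32806 scored 80, 89, 104 and 77 and Gm40491 scored 50, 53, 80 and 83.

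Other named lncRNA genes had regions in all 4 libraries as well. The start of Chaserr, upstream of and acting on the chromatin remodeller gene Chd2, scored 56, 82, 77 and 59. The start of Hk1os, 39.6 kb from an end of the hexokinase gene Hk1, scored 47, 69, 53 and 88. The start of Egfros, 78.5 kb from an end of the growth factor receptor gene Egfr, scored 28, 35, 21 and 29. Kantr on the X chromosome scored 21, 33, 43 and 38.

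The share of lncRNA ends away from coding genes that had a region varied by chromosome. It was 13.5% on chromosome 19, 10.96% on chromosome 11 and 10.7% on chromosome 16, and 3.86% on the X chromosome, 4.47% on chromosome 14 and 4.97% on chromosome 4. Of all union regions on chromosomes 19, 11 and 16, members made up 2.95%, 2.94% and 3.57%. On the X chromosome and chromosomes 14 and 4 they made up 1.65%, 3.15% and 2.77%. The part of the number of regions per chromosome in the spread was not tested. The X chromosome had 19 members, 12 of them in all 4 libraries.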
